A study of Arabidopsis thaliana with 4 samples.

Results

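The 10 genes described here encode alpha-expansins, wall proteins of growing plant cells, and were followed in Arabidopsis thaliana seedlings that overexpress the transcription factor ERF4. They were chosen by gene identifier, as EXPA1, EXPA3, EXPA4, EXPA5, EXPA6, EXPA7, EXPA8, EXPA10, EXPA11 and EXPA15, from the 25665 genes with an Arabidopsis gene identifier on the array. The 10 were picked with earlier results of these data known. Each had 1 probe, and all 10 passed the filter on dim probes. No spot of theirs was saturated. Whole seedlings of ecotype Columbia-0, 14 days old and without treatment, carried either 35S:AtERF4-HA or, as the control, 35S:NLS-GFP-HA. The first overexpresses HA-tagged ERF4, and the second a green fluorescent protein with a nuclear localisation signal and the same tag. The 35S promoter that both share is active in most plant tissues, and the labels do not give the number of independent transgenic lines. Each of 4 two-colour Agilent arrays compared the 2 genotypes within 1 biological replicate, whose plants shared a plate of MS agar (0.5% sucrose) at 23 °C under cycles of 16 h light and 8 h dark. The AtERF4-HA RNA was labelled with Cy3 for arrays 1 and 2, and with Cy5 for arrays 3 and 4.

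Alpha-expansins loosen the wall without cutting its polymers. They act at the acid pH that plasma membrane proton pumps create outside the cell, and a loosened wall yields to turgor so that the cell enlarges. The family has members for different organs, among them EXPA10 in the growing leaf, EXPA7 in the root hair and EXPA1 in the guard cell. ERF4 is a class II ethylene response factor that binds the GCC box and represses transcription through an EAR motif.

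Median spot signals of the arrays ran from 122 to 140 for Cy3 and from 166 to 222 for Cy5, with local backgrounds of 58 to 60. The share of gene probes well above background was 75.0% to 78.9% by channel. Log2 ratios over all genes correlated at 0.70 to 0.87 between arrays. ERF4 itself (AT3G15210) had log2 ratios of 0.98, 0.87, 0.82 and 1.04 on arrays 1 to 4, AtERF4-HA over control, a rise of 0.93 ± 0.07 (SE, n = 4 arrays, 1.91-fold, limma adjusted p = 0.0029). Whether its 1 probe reads the transgene, the native gene or both was not tested. This direction, used throughout, follows the dye labels. The authors' deposited table of log ratios runs the opposite way to the dye labels on all 4 arrays, while the titles give AtERF4-HA over control. Were the dye labels exchanged, each direction below would be the reverse. A whole seedling mixes cell types, so fewer cells of a type and less RNA per cell cannot be told apart.

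Most of these 10 alpha-expansins were more abundant in AtERF4-HA seedlings. Of the 10, 7 were called higher (EXPA8, EXPA5, EXPA11, EXPA3, EXPA6, EXPA15 and EXPA1) and 1 lower (EXPA10), at a limma adjusted p under 0.05 over all 19456 genes tested. EXPA7 and EXPA4 did not pass. Of the 8 other alpha-expansins tested, 0 were called higher and 1 lower (EXPA17, 6.04-fold), with a median of -0.17. Over all genes tested, 13.6% were called higher and 12.0% lower. Since the 10 were picked with earlier results of these data known, shares over all genes are given beside them as a description only. The members' median log2 ratio was 0.69, against 0.01 for all genes tested. In 9 of the 10 the ratio was above 0 on all 4 arrays, EXPA10 being the exception. Normalized levels in the AtERF4-HA channel lay above those in the control channel without overlap for 7 members and below without overlap for 1, where the shares over all genes tested were 17.1% and 16.4%. EXPA4 and EXPA15 overlapped. The count of calls changed when single arrays were left out. Without array 2, 4 members were called (3 higher), and of all genes 560 in place of 4979. Without array 1 these counts were 6 and 650. Each such fit has 1 residual degree of freedom, from the arrays of 1 dye orientation only. A call lost there can thus come from the error estimate, with little change in the ratio.

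**Figure D1:**
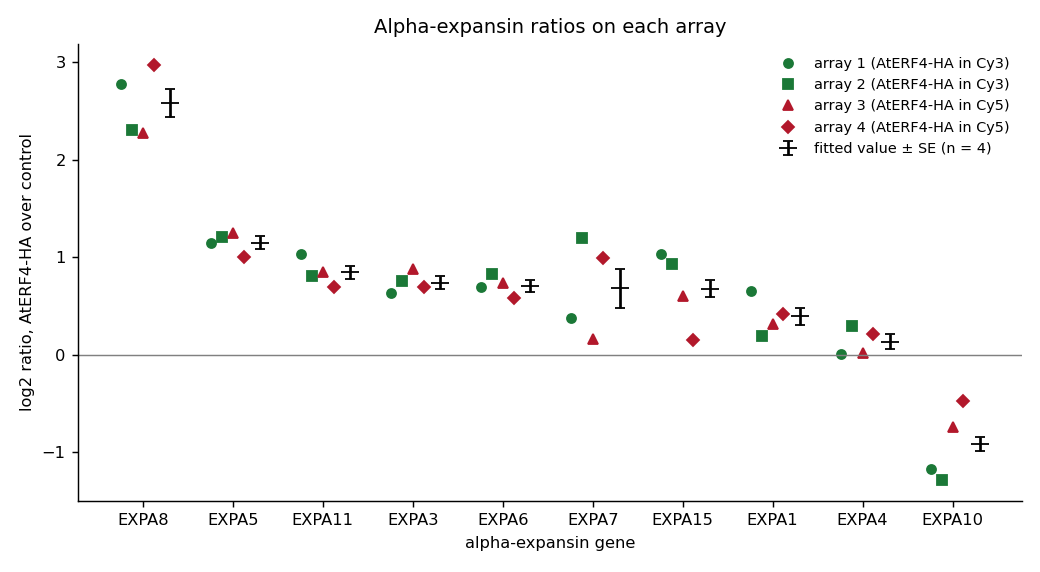
Log2 ratio (vertical axis) of each of the 10 alpha-expansin genes (horizontal axis) on the 4 arrays, AtERF4-HA over control, in green where AtERF4-HA RNA carried Cy3 and red where it carried Cy5, with the fitted value ± SE in black. EXPA8 stands above the others at 2.27 to 2.97, EXPA10 is below 0 on every array, and EXPA7 and EXPA15 are the most scattered of the others.

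EXPA8 (AT2G40610) had the highest ratio of the 10. Its normalized log2 level was 13.41, 13.18, 13.24 and 13.61 in AtERF4-HA seedlings on arrays 1 to 4, against 10.64, 10.87, 10.97 and 10.64 in control seedlings. The lowest AtERF4-HA level was thus over 2 log2 units above the highest control level. The raw median signals, before any normalization, differed in the same direction, with 6966.5, 6011.5, 13747 and 17082 in AtERF4-HA seedlings and 2602, 2527, 1242 and 1055 in control seedlings. The AtERF4-HA spot was the brighter one in Cy3 as well as in Cy5. EXPA8 rose by 2.58 ± 0.15 on the log2 scale (SE, n = 4 arrays, 95% interval 2.20 to 2.96), which is 5.99-fold, with a limma adjusted p of 0.0019. EXPA8 ranked 2 from the top among the 19456 genes tested.

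EXPA5 (AT3G29030) is known from its mutant to promote hypocotyl and leaf growth in the brassinosteroid response. Its log2 level was 12.89, 13.08, 13.18 and 13.13 in AtERF4-HA seedlings and 11.74, 11.87, 11.94 and 12.13 in control seedlings. The groups were well apart, and the ratios of 1.15, 1.21, 1.24 and 1.00 were close to each other. EXPA5 rose by 1.15 ± 0.07 (95% interval 0.98 to 1.32, 2.22-fold, limma adjusted p = 0.0020, n = 4 arrays). EXPA8 and EXPA5 were the 2 members called at 2-fold or more.

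EXPA11, EXPA3 and EXPA6 formed a middle range with 1.6- to 1.8-fold higher levels and separate groups. EXPA11 (AT1G20190) had log2 levels of 13.13, 13.20, 13.07 and 13.17 in AtERF4-HA seedlings, against 12.10, 12.39, 12.22 and 12.48 in control seedlings. The AtERF4-HA levels differed little among replicates, and the ratio varied through the control. EXPA11 rose by 0.85 ± 0.07 (95% interval 0.67 to 1.02, 1.80-fold, limma adjusted p = 0.0034, n = 4 arrays). EXPA3 (AT2G37640) had levels of 10.65, 10.73, 11.13 and 10.79 in AtERF4-HA seedlings and 10.02, 9.97, 10.25 and 10.09 in control seedlings. Array 3 was the highest in both genotypes, and the rise of EXPA3 was 0.74 ± 0.06 (95% interval 0.58 to 0.90, 1.67-fold, limma adjusted p = 0.0038, n = 4 arrays). EXPA6 (AT2G28950) had levels of 13.91, 14.12, 14.07 and 13.91 in AtERF4-HA seedlings and 13.22, 13.29, 13.34 and 13.33 in control seedlings. Its lowest AtERF4-HA level was above its highest control level, and EXPA6 rose by 0.71 ± 0.06 (95% interval 0.55 to 0.87, 1.63-fold, limma adjusted p = 0.0040, n = 4 arrays). Without array 2 the calls of EXPA3 and EXPA6 were lost, with log2 ratios of 0.71 and 0.68 and adjusted p of 0.055 and 0.057.

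EXPA15 and EXPA1 passed the threshold with less even ratios. EXPA15 (AT2G03090) had log2 levels of 11.55, 11.60, 11.69 and 11.02 in AtERF4-HA seedlings, against 10.52, 10.67, 11.09 and 10.87 in control seedlings. The AtERF4-HA level of array 4 lay below the control level of array 3, so the groups overlapped. The ratios were 1.03, 0.93, 0.60 and 0.15, larger on both arrays with AtERF4-HA in Cy3 than on both with it in Cy5. With that difference fitted as a dye term of -0.30 (red over green), EXPA15 rose by 0.68 ± 0.09 (95% interval 0.44 to 0.91, 1.60-fold, limma adjusted p = 0.010, n = 4 arrays). This standard error leaves out the spread taken up by the dye term, and the SD of the 4 ratios was 0.40. The call was lost without array 1 (0.65, adjusted p = 0.087) and without array 2 (0.70, adjusted p = 0.084).

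EXPA1 (AT1G69530), known for its part in the opening of stomata, had the smallest rise called. Its log2 level was 14.69, 14.41, 14.25 and 14.36 in AtERF4-HA seedlings and 14.04, 14.23, 13.93 and 13.94 in control seedlings. The groups all but touched, at array 3 of AtERF4-HA and array 2 of the control. EXPA1 rose by 0.39 ± 0.09 (95% interval 0.15 to 0.63, 1.31-fold, limma adjusted p = 0.040, n = 4 arrays). The value was 0.28 without array 1 (adjusted p = 0.145), 0.51 without array 2 (adjusted p = 0.076) and 0.37 without array 4 (adjusted p = 0.076), so that the call was kept in 1 of the 4 fits with an array left out. Of 7 guard cell genes tested, 1 rose, the potassium channel gene KAT1 (0.65 ± 0.10, adjusted p = 0.013), and 2 fell, with a list median of 0.02. The shares called over all genes tested were 13.6% higher and 12.0% lower. KAT1 lost its call without array 1 (0.61, adjusted p = 0.098) or array 2 (0.69, adjusted p = 0.090). The summed level of the list was 6625 to 7564 in AtERF4-HA seedlings and 6642 to 7573 in control seedlings, on the linear intensity scale.

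EXPA10 (AT1G26770), which promotes leaf growth when overexpressed, was the one member that fell. Its log2 level was 9.87, 9.92, 10.17 and 10.23 in AtERF4-HA seedlings, against 11.04, 11.21, 10.92 and 10.70 in control seedlings. The groups did not overlap, and they were nearest on arrays 3 and 4. The ratios of -1.17, -1.29, -0.74 and -0.48 gave a fitted value of -0.92 ± 0.07 (95% interval -1.10 to -0.74, 1.89-fold lower, limma adjusted p = 0.0032, n = 4 arrays), with a dye term of 0.31. The SD of the 4 ratios, 0.38, again exceeds what the standard error shows. EXPA10 kept its call in all 12 alternatives, with values of -1.10 to -0.80.

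**Figure D2:**
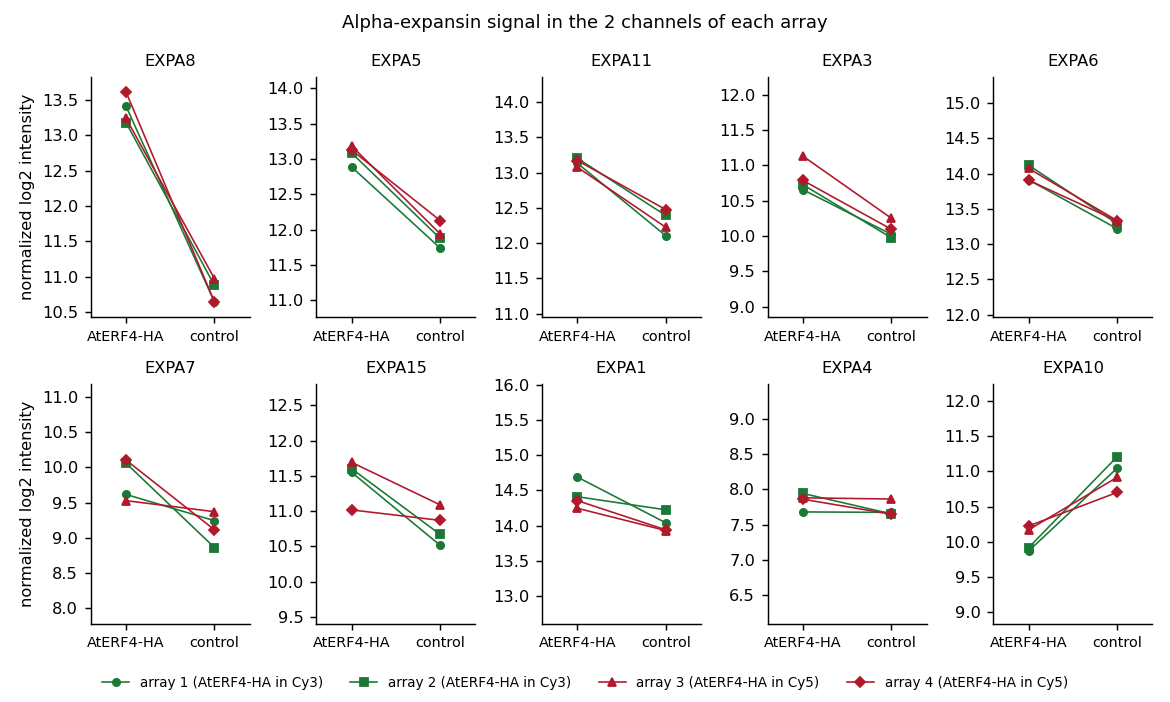
Normalized log2 intensity (vertical axis) of each alpha-expansin in the AtERF4-HA and the control channel, with a line joining the 2 channels of 1 array, green where AtERF4-HA was in Cy3 and red where it was in Cy5. Every panel spans the same range of log2 units around its own centre, so slopes can be compared but heights cannot. The lines fall steeply for EXPA8, rise for EXPA10, and differ in slope between arrays for EXPA7 and EXPA15.

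EXPA7 (AT1G12560), an expansin gene of the root hair cell that is needed for root hairs to start and grow, did not pass the test. Its log2 level was 9.61, 10.06, 9.53 and 10.10 in AtERF4-HA seedlings, against 9.24, 8.86, 9.37 and 9.11 in control seedlings. The groups did not overlap, but the distance between them was large on arrays 2 and 4 only. The ratios were 0.37, 1.20, 0.16 and 0.99, with a fitted value of 0.68 ± 0.20 (95% interval 0.17 to 1.19, limma adjusted p = 0.065, n = 4 arrays). The fitted ratio equalled that of EXPA15 to 2 decimals, with a standard error over 2 times as large. EXPA7 passed with no background correction (0.74, adjusted p = 0.010), with the scanner software's processed signals (0.91, adjusted p = 0.023) and with median centring (0.77, adjusted p = 4.2e-06). The median centring fit had infinite prior degrees of freedom and gave every gene the same standard error, 0.15. Its adjusted p thus leaves out the spread of the gene's own ratios. EXPA7 passed 3 further alternatives. These were the fits without the dye term (0.68, adjusted p = 0.044), with the authors' deposited table turned to the dye labels (1.03, adjusted p = 0.014) and without array 3 (0.89, adjusted p = 0.014). It did not pass with an offset of 16 (adjusted p = 0.083), without the filter on dim probes (adjusted p = 0.071) or with the mean of probes (adjusted p = 0.066). Nor did it pass without array 1 (0.88, adjusted p = 0.103), array 2 (0.47, adjusted p = 0.270) or array 4 (0.47, adjusted p = 0.116).

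The pattern of higher ratios on arrays 2 and 4 was shared by other root hair genes. It was noticed in EXPA7 and is given as a description. Probes near background often had smaller ratios, in either direction, on arrays 1 and 3 than on arrays 2 and 4. Among genes below their control, EXPA12 (-0.29, -0.87, -0.11 and -0.98) and EXLA3 (-0.15, -0.66, -0.03 and -0.51) had the reverse pattern. CASP5 (-0.51, -1.56, -0.07 and -0.18) did not. The part of signal level in the pattern was not tested. EXPA18 (AT1G62980), the second expansin gene known from root hairs, which was picked out after its values were seen, had ratios of 0.23, 1.38, 0.20 and 1.54, with a fitted value of 0.84 ± 0.29 (limma adjusted p = 0.096, n = 4 arrays). Its value was 0.55 without array 2 (adjusted p = 0.371) and 0.50 without array 4 (adjusted p = 0.187), against 1.48 with processed signals (adjusted p = 0.015) and 1.59 with the authors' deposited table, turned (adjusted p = 0.011). It also passed with no background correction (1.03), without array 3 (1.17) and with median centring (0.93), where every gene had the same standard error. Of 11 root hair genes tested out of 13 listed, 9 had their ratios on arrays 2 and 4 both above those on arrays 1 and 3. The exceptions were RHD6 and LRX2. The share of all genes tested was 13.3%, but that share covers both directions and every signal level. Mean log2 intensities of the 9 ran from 7.79 (IRE) to 11.24 (PRX44). PRP1, one of the 9, was well above background on 4 arrays in AtERF4-HA seedlings and 2 in control seedlings, so it was tested through the genotype where it was higher. No gene of 11 tested in a list of other root tissues had the pattern, but that list differed in signal level, from 8.42 (CASP5) to 12.15 (CASP1). The pattern was present in 3 of 9 proton pump genes, 3 of 10 cellulose synthase genes, 1 of 10 leaf mesophyll genes and 1 of 7 guard cell genes. Among the expansins EXPA4 and EXPB1 had it too. The root hair list's median ratio on arrays 1 to 4 was 0.27, 0.97, 0.10 and 0.93.

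By the test across arrays, the limma fit, 13.6% of all genes tested rose and 12.0% fell. Of these 11 root hair genes, 1 rose and none fell. At an unadjusted p under 0.05, 8 were higher, PRP1 among them, and 0 lower, where the shares over all genes tested were 22.3% and 20.6%. The median of the list was 0.59. PRX44 (AT4G26010), a wall peroxidase gene of root hairs, rose by 1.34 ± 0.24 (2.53-fold, adjusted p = 0.021), with ratios of 0.77, 1.91, 0.90 and 1.78, and lost its call without array 1 (1.63, adjusted p = 0.055) or array 2 (1.05, adjusted p = 0.096). The summed level of the list was 7166, 8971, 7871 and 11241 in AtERF4-HA seedlings and 5266, 3847, 5882 and 4792 in control seedlings. The AtERF4-HA sum was the higher one on every array, and the control sums were lowest on arrays 2 and 4. Of the markers without a test, RSL1 exceeded background clearly on 2 AtERF4-HA and 3 control arrays of the 4, and LRX1 on 3 in each channel. The part of root hair number in the EXPA7 ratio was not tested.

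**Figure D3:**
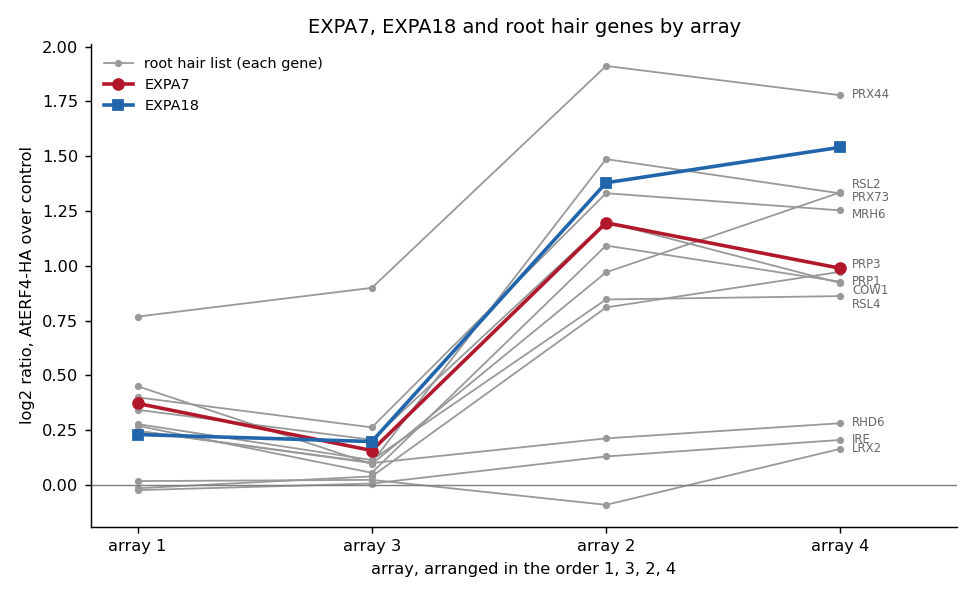
Log2 ratio, AtERF4-HA over control (vertical axis), of EXPA7 (red), EXPA18 (blue) and the 11 tested genes of the root hair list (grey) on each array, with the arrays placed in the order 1, 3, 2, 4. EXPA7, EXPA18 and 9 of the 11 list genes lie higher on arrays 2 and 4 than on arrays 1 and 3, while RHD6, LRX2 and, among the 9, IRE are the lowest on those 2 arrays.

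EXPA4 (AT2G39700) was the dimmest member, and it did not pass the test. Its raw median signals were 82, 104.5, 124 and 98 in AtERF4-HA seedlings and 92, 94.5, 97 and 82 in control seedlings, over local backgrounds of 52.5 to 62. Of the 4 arrays, 3 had an AtERF4-HA signal well above background, and 4 a control signal. After normalization the levels were 7.68, 7.94, 7.88 and 7.86 in AtERF4-HA seedlings, against 7.67, 7.65, 7.86 and 7.65 in control seedlings. They overlapped, and the fitted value was 0.13 ± 0.08 (95% interval -0.07 to 0.33, limma adjusted p = 0.242, n = 4 arrays). With no background correction it was 0.18 (adjusted p = 0.063) and with an offset of 16 it was 0.20 (adjusted p = 0.213). The processed signals gave 0.52 (adjusted p = 0.031), and the authors' deposited table, turned, gave 0.64 (adjusted p = 0.016).

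Set against all genes tested, 7 of the 10 members lay in the top 5% of fitted ratios, above 0.52. This is a description, because the members were picked with earlier results of these data known. Those 7 were EXPA8, EXPA5, EXPA11, EXPA3, EXPA6, EXPA7 and EXPA15. EXPA1 was at percentile 91.7, EXPA4 at 71.2 and EXPA10 at 3.39. The quartiles of all genes tested were -0.15 and 0.16, and of the members only EXPA4 lay between them. Outside the expansin family, the 3 genes with ratios nearest to those of EXPA8, by Euclidean distance over the 4 arrays, were AT2G25510 (distance 1.02), ACD6 (AT4G14400, distance 1.28) and AT1G19960 (distance 1.42). ACD6 encodes an ankyrin-repeat membrane protein known from salicylate defence. All 3 rose, AT2G25510 by 2.30 ± 0.28, ACD6 by 2.16 ± 0.27 and AT1G19960 by 1.90 ± 0.20 (limma adjusted p = 0.0086, 0.0090 and 0.0061). They were highest on array 4, as EXPA8 was. Having been chosen for ratios near those of EXPA8, they were likely to share its rise and its array 4 peak, so both are a description only. Unlike EXPA8 they lost their calls without array 1 (2.22, 1.99 and 1.85, adjusted p = 0.073, 0.073 and 0.062) or array 2 (2.37, 2.34 and 1.95, adjusted p = 0.074, 0.064 and 0.060).

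**Figure D4:**
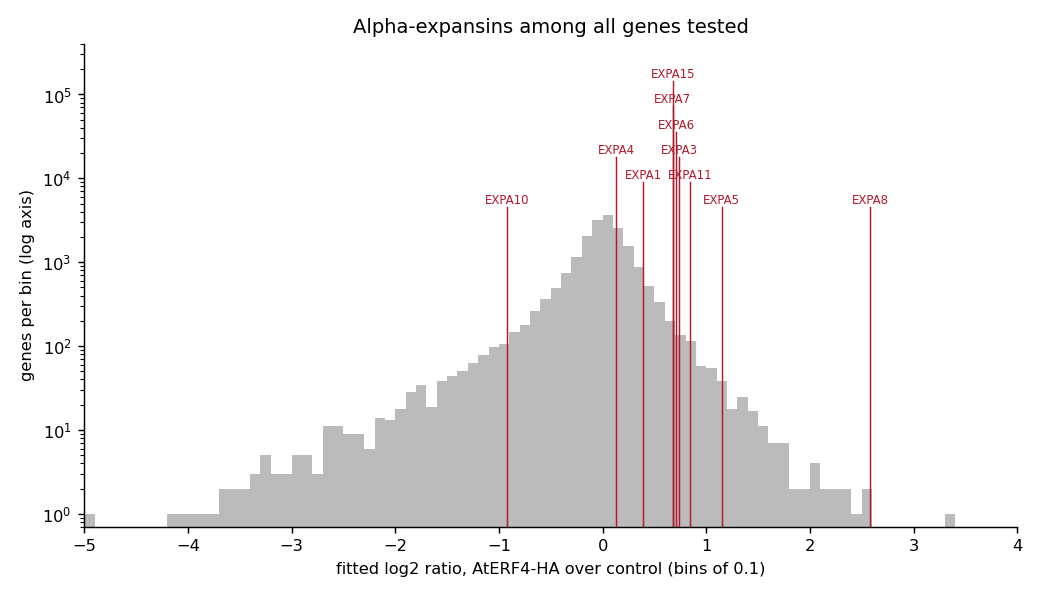
Distribution of the fitted log2 ratio, AtERF4-HA over control (horizontal axis), over the 19456 genes tested, as genes per bin of 0.1 on a log axis, with a red line at each alpha-expansin. EXPA8 at 2.58 lies at the far right edge, EXPA10 at -0.92 in the lower tail, and the lines of EXPA7, EXPA15, EXPA6, EXPA3 and EXPA11 stand close together between 0.68 and 0.85.

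The rest of the expansin family, 26 genes listed with 24 on the array, moved in both directions. Of 14 tested, 2 rose and 2 fell, with a median of -0.17, where the shares over all genes tested were 13.6% and 12.0%. Of the other alpha-expansins, 7 were not well above background on any array in either channel, and 8 were tested. In the limma fit 0 of these 8 rose and 1 fell, with 2 higher and 2 lower at an unadjusted p under 0.05. Over all genes tested, 22.3% were higher and 20.6% lower at that unadjusted p. EXPA12 and EXPA16, at -0.56 ± 0.18 and -0.22 ± 0.09, were well above background in control seedlings alone, so they were tested through the genotype where they were higher. The gene that fell was EXPA17 (AT4G01630), an expansin gene of emerging lateral roots, with ratios of -2.68, -3.04, -1.83 and -2.83. EXPA17 fell, at -2.60 ± 0.18 (6.04-fold lower, adjusted p = 0.0028, n = 4 arrays). Both beta-expansins that could be tested rose, EXPB1 (AT2G20750) by 1.47 ± 0.10 (2.78-fold, adjusted p = 0.0029) and EXPB3 (AT4G28250) by 1.27 ± 0.06 (2.42-fold, adjusted p = 0.0014). The ratios of EXPB3 were 1.52, 1.59, 0.92 and 1.07, larger with AtERF4-HA in Cy3, with a dye term of -0.28. Their SD of 0.33 exceeds what the standard error shows. Of 4 expansin-like genes, which share the expansin fold without a shown wall-loosening activity, 1 fell, EXLA1 (AT3G45970), at -2.11 ± 0.15 (4.32-fold lower, adjusted p = 0.0028), and 3 were lower at an unadjusted p under 0.05. Cross-hybridisation between family members was not tested.

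**Figure D5:**
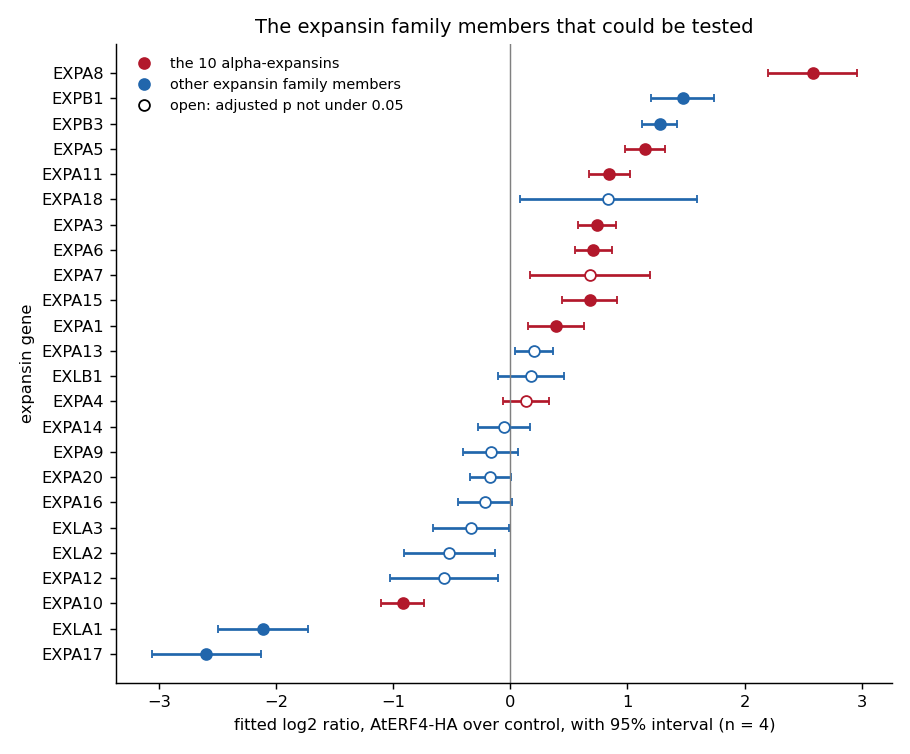
Fitted log2 ratio, AtERF4-HA over control, with its 95% interval (horizontal axis), for the 24 expansin family genes that could be tested (vertical axis, ordered by ratio), the 10 alpha-expansins in red and the other 14 in blue, with open circles where the adjusted p was not under 0.05. EXPA8 is at one end and EXPA17 and EXLA1 at the other, and EXPA7 and EXPA18 have the widest intervals among genes above 0.

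Partners of expansins in wall growth did not show a common direction. Of 9 plasma membrane proton pump genes tested, which acidify the wall, 1 rose and 2 fell, with a median of 0.07. The shares called over all genes tested were 13.6% higher and 12.0% lower. The pair known as the main pumps of the plant moved oppositely. AHA2 (AT4G30190) rose by 0.62 ± 0.10 (adjusted p = 0.015), with ratios of 0.54, 1.05, 0.46 and 0.42. AHA1 (AT2G18960) fell, at -0.60 ± 0.09 (adjusted p = 0.013), with ratios of -0.68, -0.23, -0.74 and -0.74. The call of AHA2 was lost without array 2 (0.49, adjusted p = 0.076) and that of AHA1 without array 1 (-0.49, adjusted p = 0.072). Of 10 cellulose synthase genes, which build the microfibrils that expansins act on, limma called 0, and the median was 0.01. At an unadjusted p under 0.05 there were 0 as well, where 22.3% of all genes tested were higher and 20.6% lower.

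Markers of the organs in the seedlings were read beside the expansins. Over all genes tested, 13.6% were called higher and 12.0% lower, and levels lay above or below without overlap for 17.1% and 16.4%. In the leaf mesophyll list 7 of 10 genes rose and none fell, with a median of 0.50. The levels of 6 of the 10 did not overlap between genotypes. Among them were the light-harvesting genes LHCA1, by 1.03 ± 0.06, and LHCB6, by 0.86 ± 0.06, and the photosystem genes PSBO1, by 0.57 ± 0.06, and PSAD1, by 0.56 ± 0.07 (adjusted p = 0.0021, 0.0028, 0.0070 and 0.010). Several of these ratios differed by dye orientation, which the standard errors leave out. The ratios of PSBO1 were 0.11, 0.12, 0.90 and 1.13, and those of PSAD1 0.29, 0.16, 0.75 and 1.05. RCA, the Rubisco activase gene, picked out after its values were seen, was called higher with ratios of -0.11, -0.02, 0.66 and 0.77. PSBO1 and PSAD1 lost their calls without array 1 (0.57 and 0.53, adjusted p = 0.072 and 0.088) or array 2 (0.56 and 0.60, adjusted p = 0.078 and 0.080), and PSBO1 also without the dye term (0.57, adjusted p = 0.082). The summed level of the list was 935173 to 1163680 in AtERF4-HA seedlings and 620302 to 786635 in control seedlings, without overlap. In the list of other root tissues, 2 of 11 genes rose and 1 fell, with a median of 0.12. Its summed level was 20666 to 26527 in AtERF4-HA seedlings and 19214 to 22803 in control seedlings. All 10 leaf markers passed the filter on dim probes, and of the 12 root markers WOX5 alone did not. Whether the share of leaf tissue has a part in the expansin ratios was not tested.

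The genes next to each member on the chromosome, by the order in RefSeq assembly TAIR10.1, were read to see whether the ratios extended beyond the expansins. Of 20 neighbours 14 could be tested. In the limma fit 3 rose, 11 did not pass and none fell, where 13.6% of all genes tested were called higher and 12.0% lower. Whether 3 of 14 exceeds that share was not tested. Beside EXPA8 only AT2G40600 rose, by 0.36 ± 0.07 (adjusted p = 0.027), and the neighbour on the other side, AT2G40620, had -0.10 ± 0.06 (adjusted p = 0.235). Both neighbours of EXPA7 rose, the photorespiratory reductase gene HPR3 by 0.73 ± 0.09 (adjusted p = 0.0095) and AT1G12570 by 0.61 ± 0.14 (adjusted p = 0.035). All 3 lost their calls without array 1 or array 2, at adjusted p of 0.073 to 0.161, and AT1G12570 (0.50, adjusted p = 0.060) and AT2G40600 (0.30, adjusted p = 0.052) also without array 4.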

How the data were processed

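The authors deposited scanner files of spot intensity in Cy3 and Cy5, which the submitters' processing notes credit to Agilent Feature Extraction 9.1.3.1, with processed signals and, per the file headers, a log10 ratio of red over green. The authors' deposited value table held natural log ratios (slopes of 0.694, 0.697, -0.695 and -0.693 against log2 of red over green), uncentred (medians -0.22, -0.05, -0.14 and -0.08). No source used here says how that table was made. By the dye labels it ran control over AtERF4-HA, correlating at -0.66, -0.77, -0.50 and -0.78 with the ratios used here.

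Median signals were corrected with normexp (offset 50) and normalized by loess (span 0.3) in limma 3.58.1 under R 4.3.3, without control and outlier-flagged spots. Genes were read from their brightest probe among those well above background on every array in either genotype's channel. Log2 ratios were fitted to genotype and dye terms (2 residual and 2.78 prior degrees of freedom), with Benjamini-Hochberg adjustment over 19456 genes. Levels are channel values after loess and Aquantile. The fit of genotype and dye terms was tested on simulated log ratios, which did not pass through background correction, loess or the choice of probes. All arrays shared 1 slide and 1 scan, which leaves no such batch to test. No source used here names a genome build, so coordinates are left out. Of 25665 genes, 25449 matched RefSeq TAIR10.1.

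Named were all members, ERF4, up to 4 called genes a list of 0.5 or more log2 units in size, and the 3 genes nearest to the member with the largest ratio. One gene that this rule names is not reported here. Members and lists were chosen with earlier results of these data known. Alternatives changed the offset, the background correction, the signals, the normalization, the filter, the dye term, the probe rule or the table, or left out an array.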

Additional observations from a re-analysis of the deposited data

Results flagged for a closer look

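Of 50 sets of 4 values looked at for a lone array, 3 had one, about as many as chance gives with 1 in 20. For EXLA1 it was array 4, with a log2 ratio of -2.83, AtERF4-HA over control, against -1.81, -1.84 and -1.98 on the others. For AHA1 it was array 2, at -0.23, against -0.68, -0.74 and -0.74. For EXPA4 it was the control level of array 3, at 7.86, against 7.67, 7.65 and 7.65, for a spot near background.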

How the results depend on the processing

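Over the alternatives run for the genes of the naming rule, EXPA18 and the neighbours of EXPA7 and EXPA8, 1 of 384 values changed sign, that of AT2G40620 (not called, 0.043 with the authors' table, turned). Of the rest, 335 stayed on the same side of the threshold, 35 lost the call and 13 gained one. EXPA8, EXPA5, EXPA11 and EXPA10 were called in all 13 settings, and EXPA8 ranged from 2.41 to 2.88. EXPA1 also lost its call at an offset of 16 (0.38, adjusted p = 0.054). Leaving out an array gave 4 to 9 members called, 3 to 8 of them higher, with 4 (3 higher) without array 2. Over all genes, 4979 were called (2652 higher, 2327 lower), 9102 with no background correction (4186 and 4916), 8966 with processed signals (5043 and 3923) and 10956 with the authors' table, turned (7892 and 3064). With the authors' values 72.0% of calls were higher, against 53.3% in the main setting, and the median of all genes shifted by 0.14. Relative to it EXPA8 was at 2.72, EXPA10 at -1.15 and EXPA4 at 0.48. Median centring made 63.1% of calls higher (3029 and 1769), in a fit that gave every gene the same standard error. Leaving out an array gave 560 to 7190 calls (187 to 3277 higher, 373 to 3913 lower), with 650 without array 1 and 560 without array 2, and those fits have 1 residual degree of freedom. The replicate is the pair throughout: each ratio sets both genotypes of a replicate on one array, and the main fit is the paired one. Signals near background limit EXPA4.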
